A study of Homo sapiens with 2 samples.

Results

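The proteins of the small ribosomal subunit were examined as targets in a CRISPR knockout screen of transcriptional readthrough (TRT). The members were 28 genes given by name, 27 genes with the symbols RPS or RPSA and FAU, and all 28 were found in the count table by gene symbol. They had 6 guides each, which gave 168 guide rows out of 114123 rows for 19051 protein-coding targets and 123411 rows in all. SK-OV-3, an established human ovarian cancer cell line, carried a lentiviral reporter in which mCherry took the place of most of COMMD3 and EGFP that of most of BMI1, with the stretch between both genes retained. EGFP was therefore made only when transcription ran on past the first gene. The GeCKO v2.0 guide pool was delivered to the reporter cells at low dose (multiplicity of infection near 0.3), followed by puromycin selection at 2 µg/mL. The unsorted group was this whole population, and the TRT-negative group was the fraction sorted as mCherry+ EGFP-, so both groups shared the line, the reporter, the guide pool and the drug. The control sample carries both fluorescent proteins in its title. It was read as unsorted because the design text sets the sorted fraction against cells that were not sorted. The labels do not say how long the cells grew between infection and sorting or how many cells were collected, and guide DNA holds no expression by which the line could be checked.

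The small, or 40S, subunit of the ribosome binds messenger RNA and reads its codons. It is built from the 18S ribosomal RNA, which RNA polymerase I transcribes in the nucleolus, and from proteins that are added in order during assembly. Loss of most of these proteins stops the maturation of 18S rRNA and the growth of dividing cells, so guides against their genes are usually lost from growing knockout pools. The proteins fall into those of the head, which turns during translocation, and those of the body and platform, which hold the decoding site and the exit of the messenger. Guide sequences are not printed, since the files identify guides by number and gene only.

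There was 1 library per condition, unsorted with 12882989 reads and TRT-negative with 12444427 reads. No difference between conditions was tested, and no p-value was computed. Exact Clopper-Pearson 95% intervals are given for shares. These intervals hold counting error alone, because PCR copies are not separate molecules and guides against the same gene share a target. A count of 0 allows up to 3 reads. Most of the pool was unread, with 76.9% of protein-coding guides at 0 in both libraries, and a missing guide was thus the usual state of any gene.

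The first comparison asked how many small-subunit guides had a read in each population. The guide pool before infection was not among the samples. Guides lost during growth therefore cannot be told apart from guides that were never delivered. In the unsorted library 9 of 168 guides had a read (5.36%, interval 2.48% to 9.93%), where 10.5% of protein-coding guides did. By gene, 5 of 28 members had at least 1 guide read in the unsorted library (17.9%, interval 6.06% to 36.9%), against 46.9% of protein-coding genes. These 5 genes were RPS3, RPS6, RPS9, RPS24 and RPS28. In the TRT-negative library 28 guides had a read (16.7%, interval 11.4% to 23.2%), against 22.6% of protein-coding guides, and they belonged to 17 members (60.7%, interval 40.6% to 78.5%), against 77.0% of protein-coding genes. Whether the guide intervals held the protein-coding share turned on the read minimum. At 1 read the unsorted interval lay below it and the TRT-negative one held it, and at a minimum of 10 reads the unsorted interval held it (9.62%) and the TRT-negative one, from 8.88% to 19.8%, lay below it (20.9%). By gene, the unsorted interval lay below the protein-coding share and the TRT-negative one held it.

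No guide was read in either library for 11 members (39.3%, interval 21.5% to 59.4%), against 22.1% of protein-coding genes. In the head these were RPS10 at the messenger entry side, RPS12, RPS15 near the decoding centre, and RPS16, whose tail reaches the transfer RNA. In the body and platform they were RPS2 at the messenger entry channel, RPS7, which can also bind MDM2, RPS15A, RPS21, the zinc-finger protein RPS27, RPSA, also known as the laminin receptor precursor, and FAU, whose product is a ubiquitin-like protein fused to the ribosomal protein eS30. All 66 guides of these 11 genes stood at 0 reads in both libraries.

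**Figure D1:**
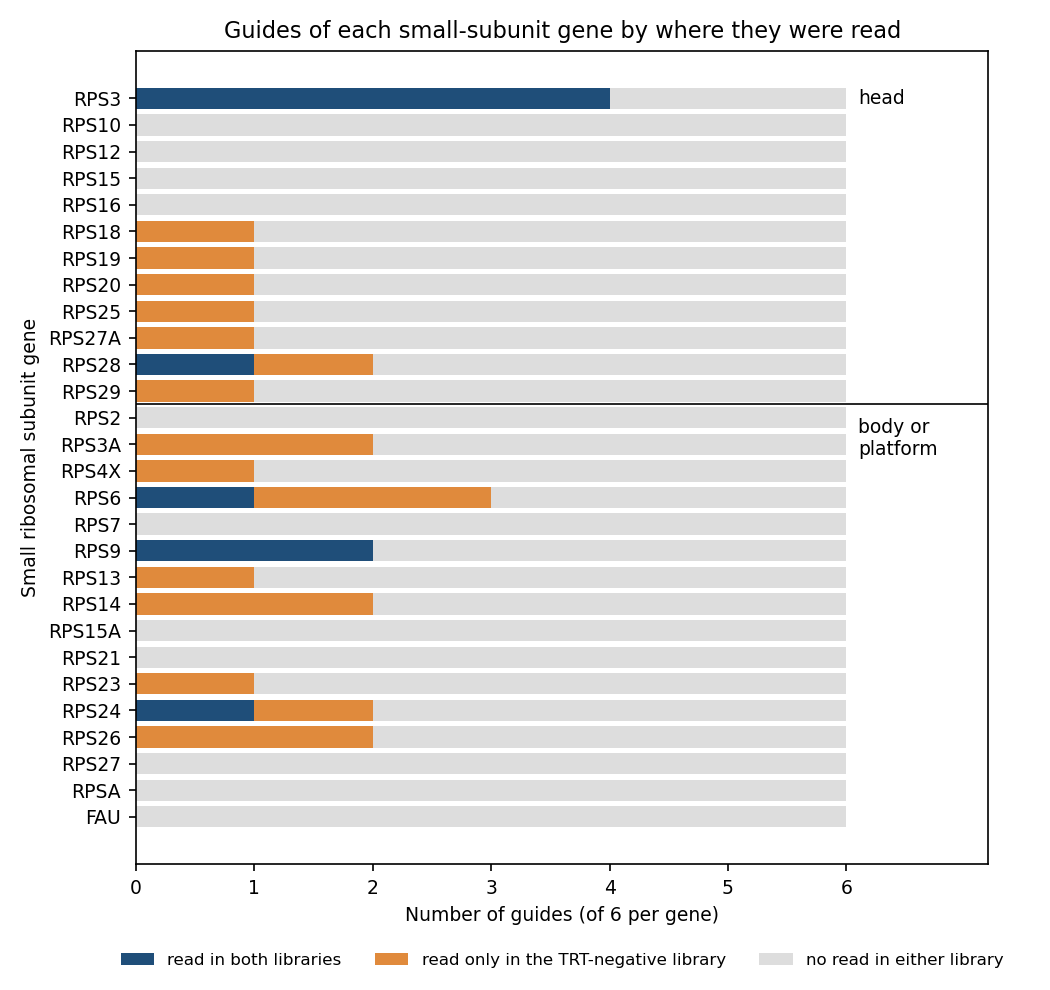
Each bar is 1 small-subunit gene with its 6 guides (x axis, number of guides), split into guides read in both libraries, read only in the TRT-negative library, or unread, with genes of the head above the line and those of the body or platform below it. RPS3 has 4 guides read in both libraries, and 11 genes have no guide with a read.

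The reads were fewer than the number of rows would give. Small-subunit guides made up 0.136% of all rows and held 5182 unsorted reads, or 0.0402% of that library, and 4551 TRT-negative reads, or 0.0366%. The mean per guide row was 30.8 unsorted reads, where protein-coding guides had 104 and guides for olfactory receptors, genes silent in most tissues, had 100.4. In the TRT-negative library the means were 27.1, 101 and 101 reads in the same order. RPS3 alone held 51.2% of the unsorted and 64.8% of the TRT-negative reads of the 28 genes. Without RPS3, which was left out after its values were seen, 5 of 162 guides (3.09%) were read in the unsorted library and the read shares fell to 0.0196% and 0.0129%. Guides that were detected in the unsorted library had a median of 655 reads, against 770 for protein-coding guides. Those detected in the TRT-negative library, which include guides read only there, had a median of 29.5 reads, against 66.

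RPS3 is a protein of the head at the messenger entry site, with a KH domain that binds RNA, and its gene lies on chromosome 11 (hg38, chr11:75399515-75422280, plus strand). It had 4 of 6 guides with unsorted reads, as did no other member (1 of 28, 3.57%, interval 0.09% to 18.35%). Of protein-coding genes, 0.546% reached this (104 of 19051), a share that the interval holds. The RPS3 guide HGLibA_42136 went from 1134 unsorted to 519 TRT-negative reads, and HGLibB_42084 went from 583 to 547. HGLibB_42083 moved the other way, from 926 to 1883 reads, and HGLibA_42138 went from 10 to 1. The log2 ratios of normalized counts, TRT-negative over unsorted with a pseudocount of 1, were -1.07, -0.04, 1.08 and -2.42 in that order. The guides of this gene thus did not move together, and the spread between them was larger than the counting interval of any of the 3 well-read ones, of which the interval of HGLibB_42083 was 0.96 to 1.19 and that of HGLibA_42136 was -1.23 to -0.92.

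RPS9, a body protein that is among the first to bind the 18S rRNA, was the only other member with more than 1 guide in the unsorted library. Its gene lies at chr19:54200809-54249003 on the plus strand of hg38. HGLibA_42194 went from 707 to 247 reads, a log2 ratio of -1.46 with a counting interval of -1.68 to -1.25. HGLibB_42142 went from 681 to 113 reads, a log2 ratio of -2.53 with an interval of -2.84 to -2.25. Both guides thus had fewer reads after sorting, by 2.75-fold and 5.76-fold in normalized counts, and the 4 other RPS9 guides had no read. Among well-read protein-coding guides, 22.5% lay below HGLibA_42194 and 5.26% below HGLibB_42142. With libraries scaled on the non-targeting guides, the log2 ratios were -0.57 and -1.64 in that order.

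RPS6 is the body protein that S6 kinases phosphorylate downstream of mTORC1, and its gene lies at chr9:19375715-19380236 on the minus strand. Its 3 guides with reads moved in different directions. HGLibB_42102 went from 111 to 9 reads, a log2 ratio of -3.43 with a counting interval of -4.74 to -2.59 computed without the pseudocount. Of well-read protein-coding guides, 1.71% lay below this guide. HGLibA_42154 and HGLibA_42156 had no unsorted read and had 102 and 27 TRT-negative reads. RPS24, a body protein mutated in Diamond-Blackfan anemia, had 655 unsorted and 369 TRT-negative reads for its main guide, and 0 and 2 reads for another. RPS28, a small head protein at the messenger exit, had 375 unsorted and 195 TRT-negative reads for its main guide, and 0 and 54 for another. The log2 ratios of both better-read guides, -0.77 for RPS24 and -0.89 for RPS28, lay near the protein-coding median.

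**Figure D2:**
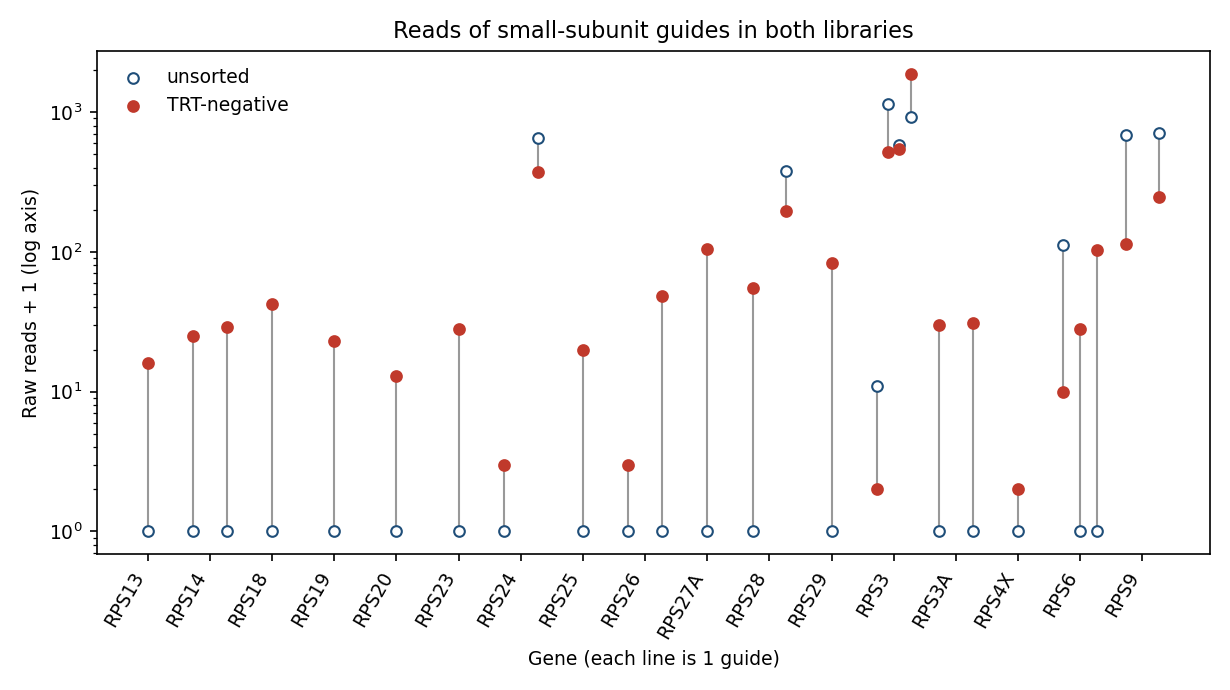
Each grey line is 1 guide and joins its raw reads plus 1 in the unsorted library (open circle) and the TRT-negative library (filled circle) on a log axis, for the 17 small-subunit genes with a read, so that guides without reads lie at 1. Guides read in both libraries belong to RPS3, RPS6, RPS9, RPS24 and RPS28, and the highest guide read only after sorting is that of RPS27A with 104 reads.

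The second comparison asked in which direction guides moved that were well read before sorting, taken as guides with at least 30 unsorted reads. There were 8 such small-subunit guides from 5 genes. Their log2 ratio had a median of -0.98 with an SD of 1.39 over guides, against a median of -0.64 with an SD of 1.40 over 10616 protein-coding guides and a median of -0.89 over 156 non-targeting guides. In the deposited scaling 7 of the 8 lay below 0, where 65.8% of well-read protein-coding guides did. When libraries were scaled on the non-targeting guides, which raised the log2 ratios by 0.89, 4 of 8 lay below 0, against 42.5% of protein-coding guides. Relative to the protein-coding median, which moves with the scaling as the guides do, 6 of the 8 lay lower. A ratio at least 2-fold lower was found for 4 of 8 guides, those of RPS6, RPS9 and HGLibA_42136 of RPS3, against 39.2% of well-read protein-coding guides. A ratio at least 2-fold higher was found for 1 guide, HGLibB_42083 of RPS3, against 12.1%. With non-targeting scaling these were 2 and 1 of 8, against 12.8% and 31.7% of protein-coding guides. The difference between the medians was not tested.

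**Figure D3:**
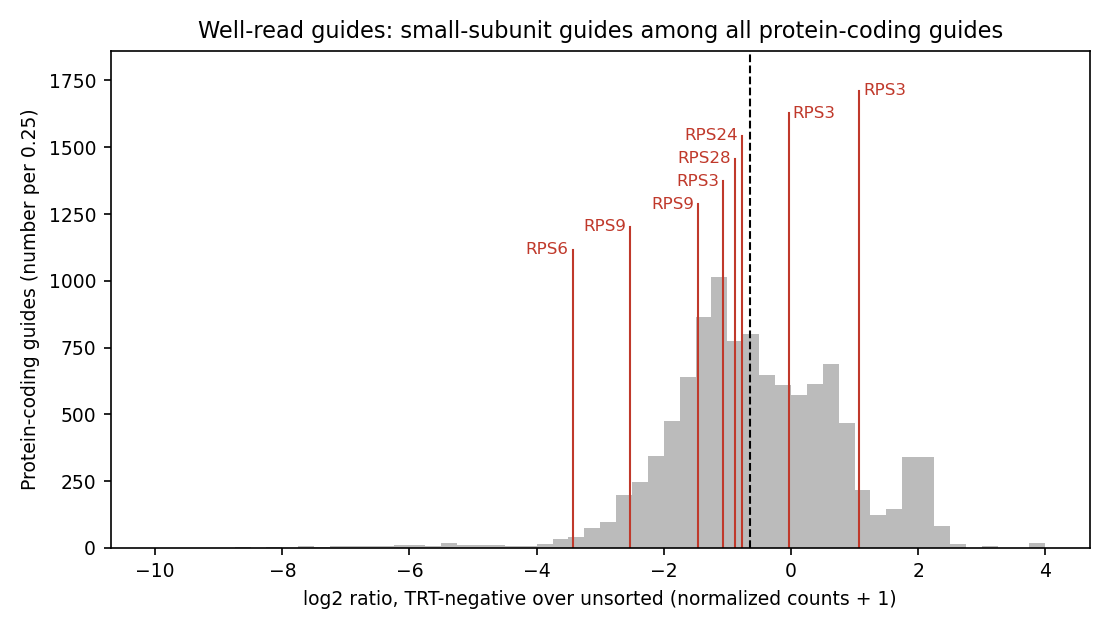
Grey bars count well-read protein-coding guides (at least 30 unsorted reads) by log2 ratio (TRT-negative over unsorted, normalized counts plus 1), red lines mark the 8 small-subunit guides, and the dashed line is the protein-coding median of -0.64. The small-subunit guides spread from -3.43 for RPS6 to 1.08 for RPS3, and 6 of the 8 lie left of the dashed line.

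The third comparison asked which knockouts appeared in the TRT-negative cells without having been read before. This was the case for 19 small-subunit guides of 15 genes (11.3% of guides, interval 6.95% to 17.1%), against 12.6% of protein-coding guides. In 12 of the 15 genes no guide had been read before sorting. The 19 guides had 1 to 104 reads with a median of 27, against a median of 35 for protein-coding guides of this kind, and together they had 668 reads. They held 14.7% of the small-subunit reads of the TRT-negative library, where such guides held 6.14% of the protein-coding reads. The other reads came from guides with unsorted reads, which were 5.36% of small-subunit and 10.5% of protein-coding guides. All 9 small-subunit guides with unsorted reads were also read in the TRT-negative library. This was the usual state of protein-coding guides too. Of these, 11943 had an unsorted read and 25788 a TRT-negative read, 14434 of the latter without an unsorted read.

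Enrichment was taken as a log2 ratio over 5.93, set at the 95th percentile of non-targeting rows. By construction 5% of those rows pass it. Non-targeting rows were read more often than protein-coding guides, 17.7% against 10.5% in the unsorted and 35.6% against 22.6% in the TRT-negative library. A guide without unsorted reads needed 60 TRT-negative reads to pass the threshold. This was reached by 3 of 168 small-subunit guides (1.79%, interval 0.37% to 5.13%), against 2.87% of protein-coding guides, in 3 of 28 genes, against 16.0% of protein-coding genes. RPS27A (chr2:55231903-55235853, plus strand), which encodes ubiquitin fused to the head protein eS31, had 1 guide with 104 reads and a log2 ratio of 6.74. The RPS6 guide with 102 reads had a log2 ratio of 6.71. RPS29 (chr14:49570984-49599164, minus strand), a zinc-binding protein of the head, had 1 guide with 82 reads and a log2 ratio of 6.40. Against a floor of 3 unsorted reads per library these were 36.0-fold, 35.3-fold and 28.4-fold higher, with the TRT-negative counts taken as read. These folds leave out the counting error of the TRT-negative reads and the sampling of cells. The 3 guides passed the threshold through those same reads. All 3 genes had a single enriched guide, so 0 of 28 genes had 2, where 1.15% of protein-coding genes did. With the threshold at the 99th percentile instead, 0 small-subunit guides passed, against 0.499% of protein-coding guides.

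Guides just under the threshold were the RPS28 guide with 54 reads and one of RPS26 with 47. RPS26, a platform protein at the messenger exit, had a further guide with 2 reads. RPS18, a head protein at the bridge to the large subunit, had 1 guide with 41 reads. RPS3A, a platform protein, had 2 guides with 29 and 30 reads. RPS14, a platform protein whose gene is in the segment lost in 5q- syndrome, had 2 with 24 and 28. Protein-coding guides read only after sorting had a median of 35 reads. At least 2 guides read in either library were found for 8 of 28 members (28.6%), against 40.9% of protein-coding genes. RPS23, which lines the decoding centre, had 1 guide with 27 reads. RPS19, the gene most often mutated in Diamond-Blackfan anemia, had 22, and RPS25, a head protein used by viral internal ribosome entry sites, had 19. RPS13, a body protein that joins the 18S rRNA early, had 1 guide with 15 reads, RPS20, a head protein that is ubiquitylated at collided ribosomes, had 1 with 12, and RPS4X, the X-linked copy of its protein, had 1 with 1. All of the single guides named here had 0 unsorted reads.

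Subgroups of the 28 genes were set side by side. The 12 genes of the head had 5 of 72 guides read in the unsorted library (6.94%, interval 2.29% to 15.5%) and the 16 of the body and platform 4 of 96 (4.17%, interval 1.15% to 10.3%), and 4 of the 5 head guides were those of RPS3. After sorting both stood at 16.7%, with 12 and 16 guides. The 13 proteins with a bacterial counterpart had 6 of 78 guides read in the unsorted library (7.69%) and the 15 without had 3 of 90 (3.33%), with intervals that overlapped, from 2.88% to 16.0% and from 0.69% to 9.43%. Those 6 guides were all of RPS3 and RPS9. By gene the order was the other way, 2 of 13 (15.4%) against 3 of 15 (20%). The 10 genes mutated in Diamond-Blackfan anemia had 2 of 60 guides read before sorting (3.33%) and 9 of 60 after it (15.0%). The pool consists of sub-libraries A and B. Before sorting, 4 of 84 guides of sub-library A (4.76%) and 5 of 84 of B (5.95%) were read, against 9.89% and 11.04% of protein-coding guides. Each sub-library had 14 small-subunit guides read after sorting.

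The genes share features that were not used to choose them. They lie on 16 chromosomes, and their coding sequences are short, from 168 bases for RPS29 to 885 bases for RPSA in GENCODE 44. All 28 have pseudogenes that carry their name, 474 in total, from 1 for RPS9 to 74 for RPSA. Coding lengths and pseudogenes were not counted for other genes, so whether they set these 28 apart was not tested. Whether guides matched such copies was not tested. None of the 168 guide rows lay beside a row with the same nonzero counts.

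Other genes of the same machinery were read from lists of proteins that build, bind or modify the subunit. RPS27L, a paralog of RPS27, had guides that went from 1216 to 391 and from 0 to 82 reads. GNB2L1, the ribosomal scaffold protein RACK1, had no read.

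The large-subunit proteins had 27 of 280 guides read in the unsorted library (9.64%, interval 6.45% to 13.7%), in 22 of 47 genes (46.8%, interval 32.1% to 61.9%). The small-subunit interval by gene, with its upper end at 36.9%, overlapped that range, and the difference between both subunits was not tested. In the TRT-negative library large-subunit guides stood at 17.1%, next to the 16.7% of the small subunit. RPL23A went from 19 to 17 reads in 1 guide and from 0 to 25 and 28 in others, and the 4 RPL17 rows with reads lay beside rows of identical counts. The assembly factors of the 40S subunit had 14 of 174 guides read before sorting (8.05%) and 30 after (17.2%). LTV1, a late assembly factor, had 1593 unsorted and 4140 TRT-negative reads for 1 guide, 7 and 48 for another and 18 and 0 for the last. RCL1, a further assembly factor, had guides with 593 and 669, 735 and 219, and 0 and 6 reads.

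Initiation factors that bind the 40S subunit had 11 of 114 guides read in the unsorted library (9.65%) and 31 in the TRT-negative library (27.2%, interval 19.3% to 36.3%). EIF2S1, the alpha subunit of eIF2, had 682 unsorted and 2375 TRT-negative reads for 1 guide and 77 and 10 TRT-negative reads from 0 for others, while 4 of the 5 EIF3C rows with reads lay beside rows of identical counts. Kinases and ubiquitin enzymes of the subunit had 3 of 78 guides read before sorting (3.85%) and 11 after it (14.1%). RPS6KB2, a kinase of RPS6, had guides that went from 58 to 462 and from 0 to 27 reads. RNF10, a ubiquitin ligase of RPS2 and RPS3, had guides with 45 and 119 TRT-negative reads from 0. Olfactory receptor guides stood at 10.7% and 22.4%.

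**Figure D4:**
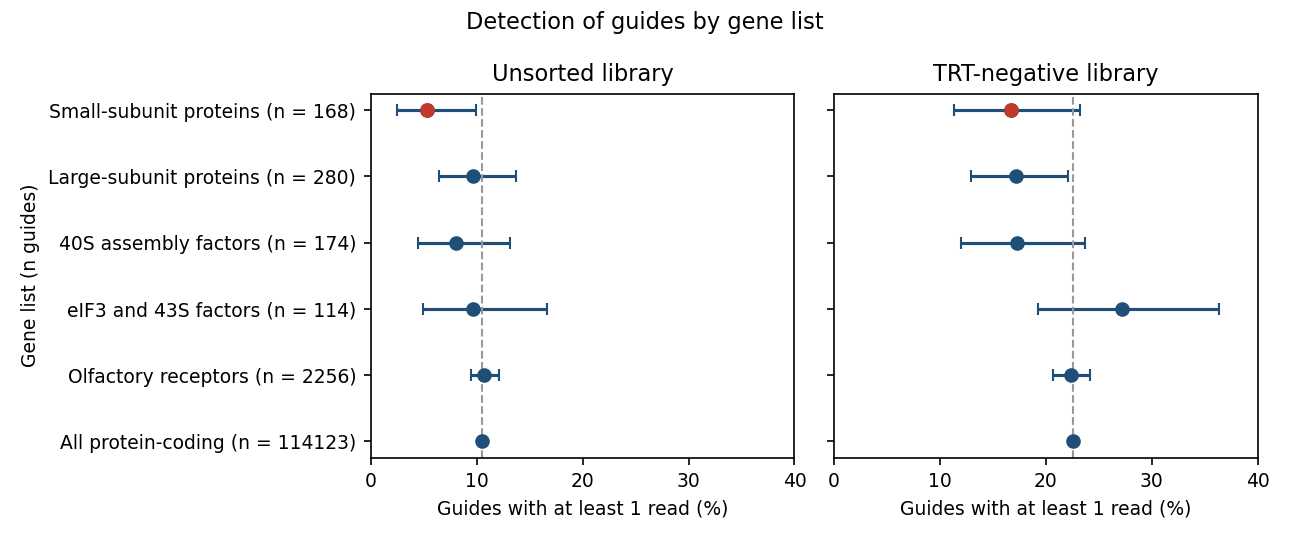
Points mark the share of each list's guides that had a read (x axis, percent) in the unsorted library (left) and the TRT-negative library (right), with exact Clopper-Pearson 95% intervals as bars and the protein-coding share as a dashed line. Small-subunit guides (red) stand at 5.36% and 16.7%, against 10.5% and 22.6% of protein-coding guides.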

How the data were processed

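Guide counts of 2 libraries from SK-OV-3 cells were analysed, 1 unsorted and 1 TRT-negative. Each guide row of the deposited tables holds a raw read count and a normalized value. That deposited signal is the raw count multiplied by 0.982 (unsorted) or 1.02 (TRT-negative). The submitters' processing notes name MAGeCK and hg38. Not given in the sources used here were the version of MAGeCK and how reads were matched to guides. Deposited gene and guide tables of scores, p-values and fold changes hold the authors' own comparison and were not used.

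The members and lists were chosen with earlier results of these data known. Log2((TRT-negative + 1)/(unsorted + 1)) was computed from normalized counts. All 28 members were named, and of each companion list the first 2 genes by number of guides read, ties by TRT-negative reads. Some genes of the subunit are not reported here. The 1000 non-targeting guides are listed 2 times each. Positions, coding lengths and pseudogene names are from GENCODE 44 on hg38. Calculations were tested on simulated data with planted counts. Tools were scipy 1.17.1, pandas 2.3.3, matplotlib 3.10.9 and numpy 2.4.6 under Python 3.11.15.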

Additional observations from a re-analysis of the deposited data

How the results depend on the processing

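Of 56 values recomputed for 9 results, 43 stayed within the 95% interval of the reported share or, for the median, the SD over single guides, a wide margin with 8 guides. Some of the 43 could not move, so the tally is not a measure of stability. No small-subunit row lay beside a row of identical counts, so leaving such rows out changed no share of small-subunit guides. A minimum of 100 unsorted reads kept all 8 well-read guides. Under non-targeting scaling that median went from -0.98 to -0.09 (protein-coding guides, -0.64 to 0.25) and the share at least 2-fold lower from 50% to 25%. The share of enriched small-subunit guides was 1.79% under total-count and non-targeting scaling and pseudocounts of 0.5 and 5. The enriched guides had no unsorted read, and these settings keep the order of such guides, so the unchanged share is no check of the calls. The share was 0% above the 99th percentile, a stricter threshold by construction. The share of well-read guides at least 2-fold higher, 12.5%, was 0% in sub-library A alone and without RPS3, since it rests on 1 RPS3 guide. Shares of reads moved under every setting tried: the unsorted and TRT-negative shares, in that order, were 0.0427% and 0.0260% in sub-library A alone, 0.0381% and 0.0453% in sub-library B alone, 0.0459% and 0.0421% without targeting rows beside a row of identical counts, 0.0242% and 0.0173% without the most abundant guide of each library, and 0.0196% and 0.0129% without RPS3. The setting without RPS3 was chosen after seeing the data. The share of guides read in the unsorted library lay between 3.09% and 5.95% under all settings tried. Its interval lay below the protein-coding share at 1 read and without RPS3, and held that share at minimums of 5 and 10 reads, in either sub-library and without rows of identical counts. The TRT-negative share was 14.3% and 13.7% at minimums of 5 and 10 reads (protein-coding, 21.5% and 20.9%) and 14.8% without RPS3. There its interval lay below the protein-coding share, which it held at 1 read, in either sub-library and without rows of identical counts. With 1 library per condition and 8 well-read guides, the direction of single genes has no replicate check.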
